A study of Mus musculus with 1989 samples.

Results

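A set of 130 thymocytes was taken from the scRNA-seq library as the cells with the highest mean log2 value over Itm2a, Cd2, Bcl2 and Id2, among cells in which 7 other genes were at 0. Of those 7 genes, Ccr7, Ikzf2, Mki67 and Top2a were at 0 in 505 of the 1993 cells of the library, and 128 of these cells were left out because Nkg7, Klrd1 or H2-Aa was above 0. They were thus selected on measured values of 11 genes. The remaining 377 cells passed the gate, and the 130 high-ranked cells made up 34.5% of them and 6.52% of the library. The working name of these cells was later selected DP cells, where DP means positive for both CD4 and CD8. Their Cd4, Cd8a, Cd8b1 and Rag1 values did not set them apart as DP cells, as shown with the coreceptor values, and they are therefore called high-ranked cells.

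The source was the thymus of C57BL/6 mice, which are inbred, labelled as male and 7 weeks old, with no treatment or altered gene named, and the cells were captured in droplets as 1 library. Cells of the same series profiled by scATAC-seq, which counts cuts in open chromatin, were sorted as DN (182 cells, negative for CD4 and CD8), DP (125), CD4 (119) or CD8 (116). No animal was named for any cell, so the scRNA-seq library and each sort count as 1 sample, no test between groups was possible, SDs are spreads over cells, and intervals are 95% and cover counting error only. Every group of cells in the library was built here from the values themselves.

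In the thymus, DP cells rearrange the T cell receptor alpha chain with the recombinase Rag1 and Rag2, and those whose receptor binds self peptide on MHC molecules are signalled to survive, which is called positive selection. Signalled cells stop recombination, gain surface receptor and the survival protein Bcl2, and later lose one coreceptor to become CD4 or CD8 single-positive cells. The last steps bring Klf2, S1pr1 and Ccr7, which guide cells to the medulla and out of the organ.

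The values are log2 values after quantile normalization, which sets the values of a cell by the order of its own genes. The cells did not end with the same set of values. Over the library, detected genes ran from 830 to 5025 per cell, and the lowest value above 0 of a cell from 0.0007 to 1.23. Counts of molecules were not used here. In their place each value was ranked within its cell, equal values sharing 1 rank, and that rank is called the number of steps of the gene. High-ranked cells had a median sum of 1967 steps, against 2558 in the whole library. Their depth was close to that of the groups they were set beside, whose medians were 2001.5 steps in 118 low-ranked cells, 1876 in 129 unranked cells and 2050 in 109 Ccr7-positive cells. Low-ranked cells passed the gate and had a ranking gene above 0 but stood below the 130, unranked cells passed the gate with all 4 ranking genes at 0, and Ccr7-positive cells passed the rest of the gate. Wherever a share at 1300 steps is given, each cell was first thinned to that sum.

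The 4 ranking genes and the 7 gate genes chose the cells, and their values are a description. The ranking mean ran from 3.88 to 0.512 with a median of 1.42. The last cell inside stood at 0.512 and the first outside at 0.510, the 10th last inside at 0.597 and the 10th outside at 0.473, so that the cells on either side of the limit form a continuous series. In the library 699 cells reached the mean of the last high-ranked cell, and 569 of them failed the gate. Top2a, a topoisomerase of dividing cells, was above 0 in 903 cells of the library, Mki67 in 726, Ikzf2 in 722, H2-Aa in 381, Ccr7 in 332, Nkg7 in 244 and Klrd1 in 61.

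**Figure D1:**
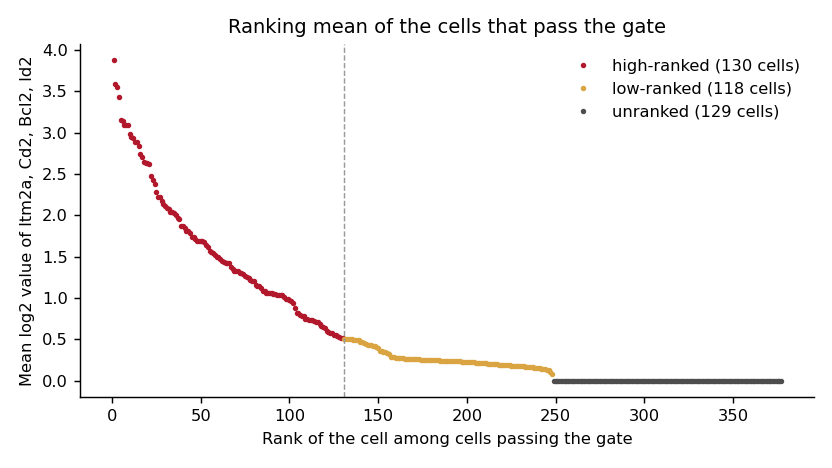
Mean log2 value of Itm2a, Cd2, Bcl2 and Id2 (y axis) for the 377 cells that passed the gate, in order of that mean (x axis), with 1 point per cell and a dashed line after the 130 high-ranked cells. The values fall from 3.88 to 0.512 in the high-ranked cells without a gap at the line, and the 129 unranked cells are at 0.

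Among the ranking genes, Itm2a, a membrane protein induced when DP cells are selected, had a mean of 2.20 ± 1.76 (SD over 130 cells) and was above 0 in 76.9% of the high-ranked cells. Cd2, an adhesion receptor of T cells, was the most widely detected, with a mean of 1.98 ± 1.07 and values above 0 in 90.0%. Bcl2, which blocks the mitochondrial path of cell death, had a mean of 1.26 ± 1.24 and was above 0 in 63.1%. Id2, an inhibitor of E proteins, was the scarcest, at 0.90 ± 1.25 and 44.6%. The 4 genes did not always occur together. All 4 were above 0 in 31 cells, 3 in 49, 2 in 36 and a single one in 14, and in 9 of those 14 the single gene was Cd2. Itm2a and Cd2 were found together in 93 cells, Cd2 and Bcl2 in 71, and Bcl2 and Id2 in 39. Among low-ranked cells, 105 had 1 ranking gene and 13 had 2.

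The starts of the ranking genes Itm2a and Bcl2 are shown because open chromatin was read there. Itm2a lies at X:107397099-107403376 and Bcl2 at 1:106538178-106714274 of GRCm38 in GENCODE vM21, both on the minus strand and protein coding, and Cd2 lies at 3:101275899-101287939 and Id2 at 12:25093799-25097140, also on the minus strand. The 250 bases before the RefSeq start (GRCm38.p6) of Itm2a, chrX:107403361-107403610, and of Bcl2, chr1:106714291-106714540, read 5′ to 3′ on the minus strand as follows, with capitals for a match to TGACG, the core of the Creb site, on either strand.
Itm2a: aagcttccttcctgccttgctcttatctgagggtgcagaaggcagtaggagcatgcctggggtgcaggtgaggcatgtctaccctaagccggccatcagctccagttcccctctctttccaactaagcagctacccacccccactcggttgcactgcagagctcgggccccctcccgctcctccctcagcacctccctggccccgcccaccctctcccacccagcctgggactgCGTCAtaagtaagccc
Bcl2: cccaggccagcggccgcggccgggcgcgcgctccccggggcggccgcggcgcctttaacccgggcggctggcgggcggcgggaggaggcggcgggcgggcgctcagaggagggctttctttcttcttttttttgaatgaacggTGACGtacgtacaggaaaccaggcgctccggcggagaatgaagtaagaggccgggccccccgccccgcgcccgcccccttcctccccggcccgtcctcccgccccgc
Each window held 1 match. Of 32851 RefSeq promoter windows of this length, 17.8% held at least 1. Neither held the Runx letters TGTGGT, the E-box CAGCTG or the Tcf/Lef letters CTTTGA, which were in 14.05%, 13.0% and 13.8% of the windows. The window of Id2, not printed, held no TGACG match and 1 CAGCTG match, and the window of Cd2 was not used here.

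The ranking genes, which chose the high-ranked cells, were also found in Ccr7-positive cells, which the ranking did not select. Itm2a was above 0 in 61.5% of them with a mean of 1.38 ± 1.54 (SD over 109 cells), Cd2 in 83.5% with 1.74 ± 1.14, Bcl2 in 62.4% with 1.33 ± 1.38 and Id2 in 32.1% with 0.56 ± 1.03. For Bcl2 the Ccr7-positive cells were as high as the cells ranked on it. A Ccr7 value of 0 in a single cell does not show that Ccr7 was absent.

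The coreceptor genes were lower in the high-ranked cells than in the other cells that passed the gate. Cd8b1, which encodes the beta chain of CD8, had a mean of 1.52 ± 1.28 in high-ranked cells, 3.70 in low-ranked cells and 4.06 ± 0.86 in unranked cells. At 1300 steps it was found in 66.9% (58.1 to 74.9) of high-ranked cells, 98.4% (94.5 to 99.8) of unranked cells and 56.0% (46.1 to 65.5) of Ccr7-positive cells. Cd8a, the alpha chain, was found in 46.2% (37.4 to 55.1), 91.5% (85.3 to 95.7) and 43.1% (33.7 to 53.0), and Cd4 in 29.2% (21.6 to 37.8), 54.3% (45.3 to 63.1) and 35.8% (26.8 to 45.5). For all 3 genes the intervals of high-ranked and unranked cells did not overlap, and those of high-ranked and Ccr7-positive cells did. The share of all genes with intervals apart was not counted, so this describes the 3 genes only.

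RNA free in the suspension can add values of abundant genes to cells that do not make them. The same shares were therefore read in 33 class II-high cells, whose mean over H2-Aa, H2-Ab1, H2-Eb1 and Cd74 was at least 2. Such cells should lack Cd8b1 and Rag1. They had a median sum of 2694 steps before thinning, against 1967 in high-ranked cells. Cd8b1 was found at 1300 steps in 72.7% (54.5 to 86.7) of the class II-high cells and Rag1 in 36.4% (20.4 to 54.9), against 66.9% and 20.8% (14.2 to 28.8) of the high-ranked cells. The Cd8b1 and Rag1 shares of the high-ranked cells were thus no higher than those of class II-high cells, with overlapping intervals. Whether the values in class II-high cells came from free RNA or from doublets, which were not called, was not tested. Cd8a was found in 39.4% (22.9 to 57.9) of class II-high cells and Cd4 in 12.1% (3.40 to 28.2), and dendritic cells can make both.

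Cd4 was above 0 together with Cd8a or Cd8b1 in 49 high-ranked cells, 37.7% (29.3 to 46.6) of them, and in 60.2% of low-ranked, 65.1% (56.2 to 73.3) of unranked, 45.0% (35.4 to 54.8) of Ccr7-positive and 27.3% (13.3 to 45.5) of class II-high cells. Another 66 high-ranked cells had Cd8a or Cd8b1 without Cd4, 7 had Cd4 alone and 8 had neither. After thinning to 1300 steps the share with both was 25.4% (18.2 to 33.8) in high-ranked and 54.3% (45.3 to 63.1) in unranked cells. Given the Cd8b1 share of class II-high cells, a single cell cannot be called DP or single-positive from these values. The lineage factors were scarce, with Zbtb7b (ThPOK, of the CD4 lineage) above 0 in 12.3% of high-ranked cells, Runx3 (of the CD8 lineage) in 10.8% and Gata3 in 30.0%, and in Ccr7-positive cells Zbtb7b in 15.6%, Runx3 in 13.8% and Gata3 in 30.3%.

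**Figure D2:**
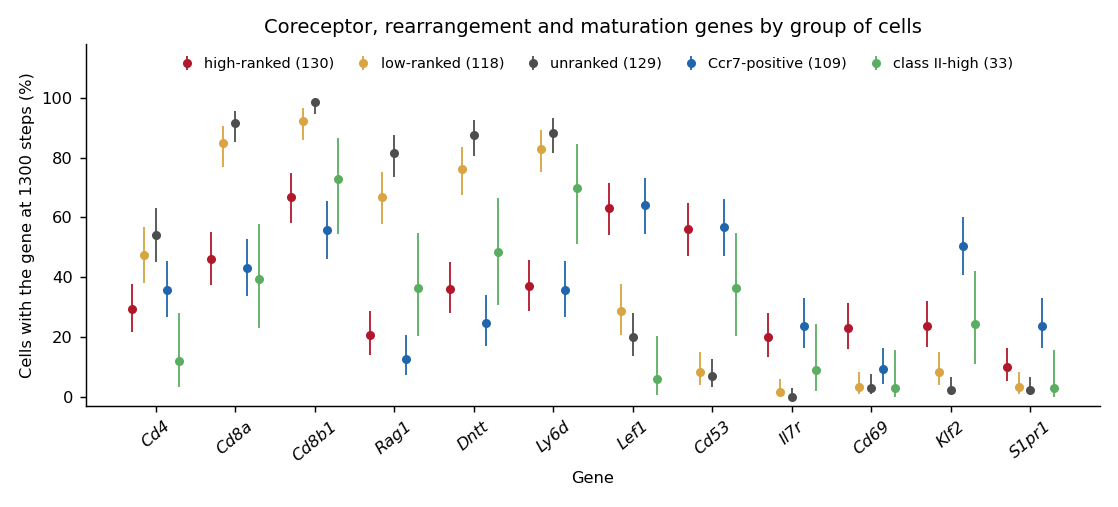
Share of cells with each gene at 1300 steps (y axis, percent, with exact binomial 95% intervals) for coreceptor, rearrangement and maturation genes (x axis) in 5 groups of cells, with the number of cells in the legend. High-ranked cells lie near Ccr7-positive cells for the genes from Cd4 to Il7r (Cd8b1 66.9% and 56.0%, Lef1 63.1% and 64.2%) and far from unranked cells, whereas for Klf2 they lie at 23.8% and Ccr7-positive cells at 50.5%.

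Against unranked cells, 9 of the 17 genes of the rearranging DP program were among the lower genes, and some genes of the cytoskeleton, of MHC class I and of later maturation were among the higher genes of the high-ranked cells. A difference of mean log2 value of at least 0.5 was counted, over 6503 genes above 0 in at least 5% of the cells of either group and outside the rule. Of these, 46 genes (0.707%) were higher and 72 (1.11%) lower in the high-ranked cells, and the median over all genes was 0.00015.

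Tmsb10, an actin-binding thymosin, differed most. Its lowest, median and highest values were 0, 6.14 and 7.14 in high-ranked cells and 0, 1.90 and 6.14 in unranked cells. The middle of the high-ranked cells thus sat at the top of the unranked range, with 120 of the 130 at 4 or more, a level chosen after the values were seen, against 5 of 129, and the mean was 3.70 higher. The value 6.14 was also the 90th percentile of the high-ranked cells, so their values leveled off there. Quantile normalization sets values by order within a cell and can level off the highest genes. In the same list of 18 actin and thymosin genes, 5 were higher, none was lower and the median difference was 0.30. Pfn1, profilin, was 1.08 higher, Arpc2, a subunit of the actin-branching Arp2/3 complex, 1.12 higher, and Actg1 0.74 higher.

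The genes that mark recombination stood on the other side. Of the 17 genes of the rearranging DP program, 9 were lower and none was higher, with a median difference of -0.97. Ly6d, a surface protein of DP cells before selection, was at 0.69 ± 1.12 in high-ranked and 3.18 ± 1.51 in unranked cells. Dntt, the enzyme that adds bases at recombined joins, was at 0.70 ± 0.95 and 2.52 ± 1.14, and Rag1 at 0.45 and 1.83. Endou was 1.68 and Arpp21 1.49 lower. Class II-high cells, with 2.19 for Ly6d, 0.82 for Dntt and 0.76 for Rag1, were above the high-ranked cells for each of these 3 genes, and some B and dendritic cells make Ly6d.

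Within the 23 genes of the receptor complex and its first signals, the chains moved in both directions, with 1 gene higher, 4 lower and a median difference of 0.08. Trac, the constant part of the alpha chain, was at 2.12 ± 1.19 in high-ranked and 1.18 ± 1.15 in unranked cells. Trbc1 and Trbc2, the constant parts of the beta chain, were 0.89 and 0.76 lower, Themis, which tunes receptor signals in thymocytes, 0.76 lower and the kinase Lck 0.65 lower. Trbc1 and Trbc2 are close copies, and how reads that match both were counted was not examined here. Cd3d and Cd3g differed by 0.39 and 0.43, below the size counted.

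Among 18 coreceptor and lineage genes, 3 were higher and 5 lower, with a median difference of 0.10. Lef1, a partner of beta-catenin, was at 1.43 ± 1.16 in high-ranked and 0.34 ± 0.55 in unranked cells, Tox, which CD4 lineage development requires, was 0.72 higher and Ets1 0.51 higher. Cd8a, Cd8b1 and Cd4 were 1.74, 2.55 and 0.52 lower, and Tcf7, the relative of Lef1, and Bcl11b, which fixes T cell identity, were 0.60 and 0.54 lower. Lef1 was found at 1300 steps in 63.1% of high-ranked and 6.06% of class II-high cells.

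Of the 20 genes of MHC class I presentation, 17 could be tested, with 4 higher, none lower and a median difference of 0.17. B2m, the light chain of every class I molecule, was at 2.57 ± 1.33 and 1.28 ± 1.15, H2-D1 was 0.96, H2-K1 0.61 and Psme2 0.61 higher. Of 25 genes of late maturation and the interferon response, 22 could be tested. Of these, 5 were higher, namely Cd52, Shisa5, Ifi27l2a, Ms4a4b and Vim by 2.16, 1.45, 0.97, 0.63 and 0.62, and 2 were lower, Ly6e by 1.49 and Lgals1 by 1.28. The list had a median difference of 0.10. In the Gimap family, GTPases of lymphocyte survival, Gimap6 was 0.74 and Gimap4 0.72 higher, and none of the 8 genes was lower.

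Of the 17 genes with CD2 partners and costimulatory receptors, Cd53, a tetraspanin, was 1.11 and Cd28, the main costimulatory receptor, 0.76 higher, and Sh2d1a, the adaptor of the SLAM receptors, was 0.51 lower. Of the 17 genes of receptor signalling, 12 could be tested and none was higher by 0.5. Cd69, the early activation antigen, was at 0.49 and 0.05, Cd5, which scales with signal strength, at 0.62 and 0.14, and Egr1 at 0.28 and 0.03. Myb, which keeps DP cells alive, was 0.56 lower. In the IL-7 receptor list none of 14 tested genes differed by 0.5, with Il7r at 0.45 and 0.01 and Il2rg at 1.04 and 0.59. In the list of Bcl2 relatives none of 12 tested genes differed by 0.5, and Bcl2l1, the Bcl-xL of DP cells, was at 0.11 in high-ranked and 0.42 in unranked cells. Among E proteins and Id inhibitors other than Id2, Tcf12 (HEB) was 0.53 lower and Id3 stood at 0.71 and 0.48.

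In the same genes low-ranked cells stood near unranked cells. Against the 118 low-ranked cells, a comparison added after the data had been seen, 38 of 6695 genes (0.568%) were higher and 53 (0.792%) lower, and both ends again held Tmsb10 (3.15), Cd52 (1.95), Shisa5 (1.29), Ly6d (-2.21), Cd8b1 (-2.19) and Ly6e (-1.68). The sum over the 17 genes of the rearranging DP program had a median of 3.52 in high-ranked, 18.7 in low-ranked, 20.4 in unranked and 2.82 in Ccr7-positive cells. Crip1 and Hmgb2 were 0.83 and 0.58 lower against low-ranked cells, and 0.30 and 0.16 lower against unranked cells.

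Cells with the early mark Cd69 outside the high-ranked set were few. Cd69 was above 0 in 51 cells that passed the gate, and 40 of these were high-ranked, which left 11. Against those 11 cells, 67 of 6743 genes (0.994%) were higher and 87 (1.29%) lower, with Tmsb10 3.41, Cd52 2.11 and Ptpn18 1.46 higher and Ly6d 2.96, Dntt 1.87 and Ighm 1.54 lower. The 11 cells give means of low precision.

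Against Ccr7-positive cells few genes differed. Of 6470 genes, 4 (0.0618%) were higher in the high-ranked cells and 14 (0.216%) lower, and the median over all genes was 0.00079. The 4 were Ccr9, a chemokine receptor of thymic cells, by 0.84, Cd28 by 0.53, and the chromatin organizer Satb1 and the transcription factor Sox4 by 0.52 each. The last 3 lay close to the size counted and fell below it in some other settings, with Cd28 at 0.41 and Satb1 at 0.44 for a set of 160 cells, Cd28 at 0.47 and Sox4 at 0.47 when ranked without Bcl2, Cd28 at 0.49 without Cd2 and Satb1 at 0.46 without Itm2a. Gm4258, at 0.33, reached 0.61 for 160 cells. Ccr9 had a median of 1.97 and a maximum of 4.60 in high-ranked cells, and 0.54 and 3.91 in Ccr7-positive cells. Its mean in unranked cells was 1.88, as high as in the high-ranked cells, and Satb1 (3.40 and 3.28) and Sox4 (1.09 and 1.12) were likewise close between high-ranked and unranked cells.

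The 14 genes lower than in Ccr7-positive cells included 3 of class I presentation and 4 of late maturation. Ifi27l2a, an interferon-induced gene, was 0.97 lower, H2-K1 0.93, Klf2 0.79, B2m 0.76, Shisa5 0.72, H2-D1 0.71 and Cd52 0.67 lower, and Gm12840 0.78 lower. Klf2, the factor that switches on S1pr1, had a median of 0 and a maximum of 3.55 in high-ranked cells and 0.99 and 4.20 in Ccr7-positive cells, so the ranges overlapped while the middle values differed. At 1300 steps Klf2 was found in 23.8% (16.8 to 32.1) of high-ranked, 50.5% (40.7 to 60.2) of Ccr7-positive and 2.33% (0.482 to 6.65) of unranked cells, and in 24.2% (11.1 to 42.3) of class II-high cells. S1pr1, the exit receptor, was found in 10.0% (5.44 to 16.5) and 23.9% (16.2 to 33.0) of high-ranked and Ccr7-positive cells. Of the 17 tested class I genes, 3 were lower and the median difference was -0.13, and of the 23 tested late maturation genes 4 were lower with a median of -0.16. The sum over the class I list had a median of 10.7 in high-ranked, 6.01 in unranked and 15.7 in Ccr7-positive cells, so that high-ranked cells stood between the others. The 8 mature cell markers outside the rule likewise summed to medians of 3.59, 0.99 and 7.15, with 3 of them higher than in unranked cells (median difference 0.47) and 3 lower than in Ccr7-positive cells (-0.21). Among 19 genes of migration and egress, 17 could be tested against unranked cells and none differed by 0.5. Against Ccr7-positive cells 18 could be tested, and Ccr9 and Klf2 were the 2 that differed, in opposite directions. Neither the 16 tested genes of the rearranging DP program (median difference 0.06) nor the actin list (0.03) had a gene that differed by 0.5 from Ccr7-positive cells.

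**Figure D3:**
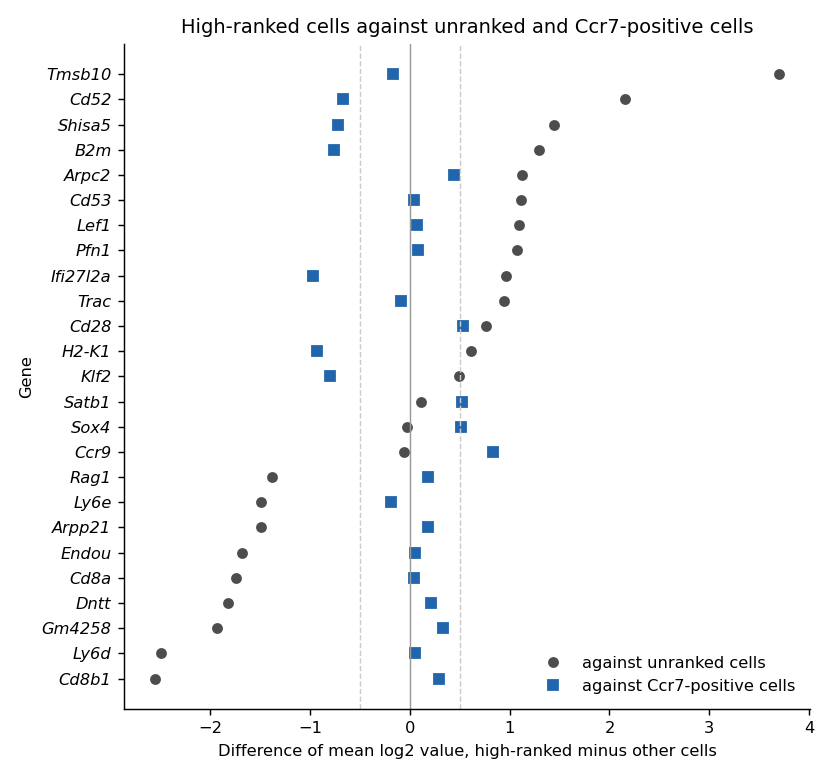
Difference of mean log2 value (x axis), high-ranked minus unranked cells (circles) and high-ranked minus Ccr7-positive cells (squares), for named genes (y axis) in order of the first difference, with dashed lines at 0.5 in both directions. Both differences share the high-ranked cells. Tmsb10 lies at 3.70 against unranked cells and Ly6d at -2.49, while both lie within 0.5 of Ccr7-positive cells, and Ccr9 lies at -0.05 and 0.84.

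Markers of other cells were low in the median high-ranked cell, and single cells reached higher sums. Of the 16 antigen-presenting, B and myeloid markers, 7 were above 0 in at least 5% of high-ranked cells, 5 were at 0 in every one, and the sum over the list ran from 0 to 4.77 with a median of 1.06, against 9.59 to 41.0 in class II-high cells. The 15 markers of innate-like lymphocytes summed to 0 to 11.2 in high-ranked, 0 to 9.70 in unranked and 0 to 4.09 in Ccr7-positive cells, with medians of 0.75, 0.87 and 0.54. The 10 DN markers had a median sum of 0 in all 3 groups. Their sums ran from 0 to 7.99 in high-ranked, 0 to 8.05 in unranked and 0 to 3.55 in Ccr7-positive cells. Against unranked cells 9, 6 and 3 genes of these lists could be tested and none differed by 0.5, nor did any of those tested against low-ranked or Ccr7-positive cells, whereas Trdc, the constant part of the T cell receptor delta chain, was 0.51 lower than in the 11 Cd69-positive cells. Nkg7, Klrd1 and H2-Aa had been used by the gate.

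Values of other genes varied along the ranking. The high-ranked cells were divided by their ranking mean, the value the rule used, into 44 lower, 43 middle and 43 upper cells. Their medians were 1878, 1977 and 1970 steps. This division follows the rule, and the values along it are a description. Tmsb10 had means of 4.94 ± 1.96, 5.81 ± 0.68 and 6.05 ± 0.19, and Lef1 was at 1.02, 1.52 and 1.75. Ccr9 was at 1.34, 1.99 and 2.17 and Il7r at 0.21, 0.32 and 0.83, with Il7r found at 1300 steps in 11.4% (3.79 to 24.6) of the lower and 37.2% (23.0 to 53.3) of the upper cells. Rag1 went the other way, at 0.74, 0.40 and 0.20, and Cd8b1 at 2.04, 1.43 and 1.07. Klf2 was also lower toward the top, at 0.80, 0.48 and 0.26, as was H2-K1 at 1.15, 0.95 and 0.51. The spreads over cells overlapped for each gene named.

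**Figure D4:**
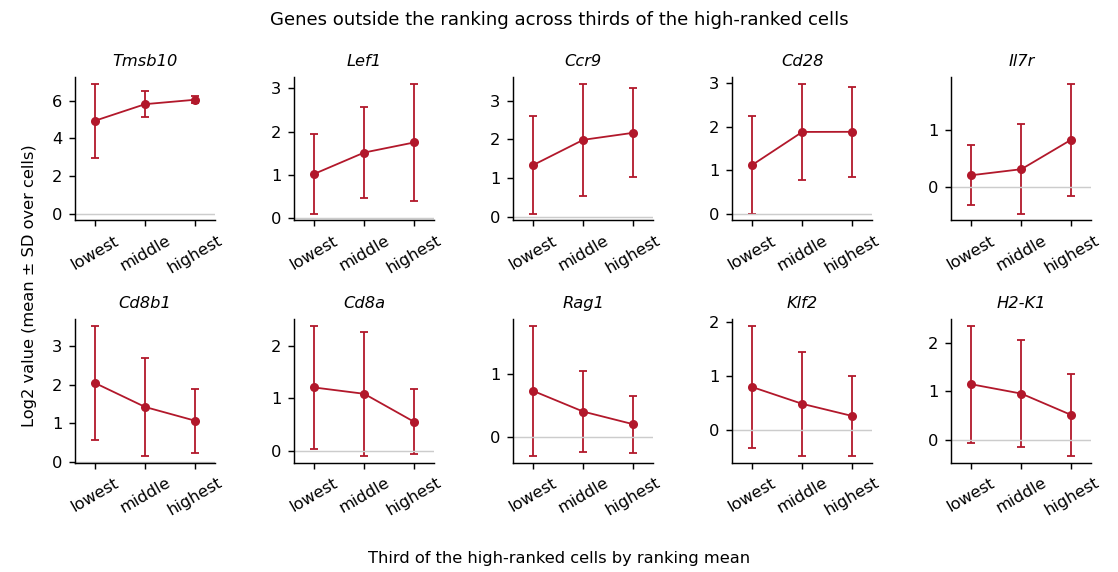
Log2 value (y axis, mean ± SD over cells, its range set for each gene) of 10 genes outside the ranking in the lower (44), middle (43) and upper (43) high-ranked cells by ranking mean (x axis). Tmsb10, Lef1, Ccr9, Cd28 and Il7r have higher means and Cd8b1, Cd8a, Rag1, Klf2 and H2-K1 lower means in the upper than in the lower cells, and the SD bars overlap.

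Some of the lower cells had a high sum over the rearranging DP program. The sum reached the lower quartile of the unranked cells, 18.2, in 7 high-ranked cells, which is 5.38% (2.19 to 10.8), against 51.7% (42.3 to 61.0) of low-ranked and 2.75% (0.571 to 7.83) of Ccr7-positive cells. All 7 were among the 44 lower cells, which have a low ranking mean by definition. Their Rag1 mean was 2.26 ± 1.09 and their Dntt mean 3.15 ± 0.87, Id2, Cd69 and Klf2 were at 0 in each, and Tmsb10 was at 1.16 ± 1.45. Without these 7 cells, a choice made after the data had been seen, the other 37 lower cells had a Tmsb10 mean of 5.65 ± 0.97, close to the 5.81 of the middle cells, and a Rag1 mean of 0.45 ± 0.76, while Cd8b1 was at 1.82, Klf2 at 0.95 and H2-K1 at 1.31. In the other 123 cells Rag1 was at 0.35 ± 0.63, Dntt at 0.56 ± 0.75 and Tmsb10 at 5.84 ± 0.69. Rag1 and Dntt belong to the program, so their values in both sets follow from this choice. Id2 is a ranking gene, so its value of 0 goes with the place of the 7 among the lower cells. Near the quartile lay 2 high-ranked cells within 2 units below it and 1 within 2 above it.

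Cd69 and the exit genes divided the high-ranked cells in another way, chosen after the data had been seen. Cd69 without Klf2 or S1pr1 was found in 27 cells, Klf2 or S1pr1 without Cd69 in 24, both in 13 and neither in 66. Of the ranking genes, Itm2a was at 2.85 ± 1.69 in the Cd69 cells and 1.10 ± 1.24 in the Klf2 or S1pr1 cells, Bcl2 at 1.84 and 0.96, and Cd2 at 2.11 and 1.85. Ranking genes chose the cells, so their values within the set are a description. Ccr9 was at 2.45 ± 0.99 and 0.63 ± 1.06, and was above 0 in 92.6% and 37.5% of them. Egr1, an immediate target of receptor signals, was at 0.52 and 0.08. Late genes were arranged in the opposite way, with Ifi27l2a at 0.87 ± 1.71 and 2.52 ± 1.77, Ms4a4b at 0.34 and 1.63, and H2-K1 at 0.59 and 1.73. Tmsb10, at 6.02 and 5.87, stood near the level at which its values were leveled off. Cells with both marks resembled the Klf2 or S1pr1 cells in Ifi27l2a (2.57) and Ms4a4b (1.54), and cells with neither were nearer the Cd69 cells in Ccr9 (2.10) and Itm2a (2.41) and nearer the Klf2 or S1pr1 cells in Bcl2 (1.13) and Egr1 (0.23).

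**Figure D5:**
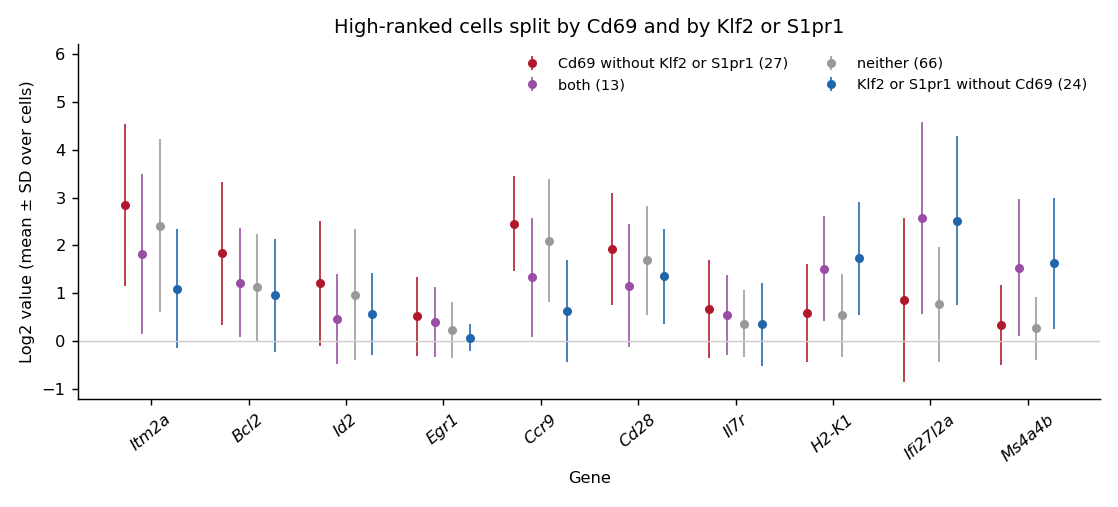
Log2 value (y axis, mean ± SD over cells) of 10 genes (x axis) in the high-ranked cells, divided by whether Cd69 and whether Klf2 or S1pr1 was above 0, with the number of cells in the legend. Itm2a, Bcl2 and Ccr9 are highest in the 27 cells with Cd69 alone (Ccr9 2.45), and H2-K1 and Ms4a4b highest in the 24 cells with Klf2 or S1pr1 alone (Ms4a4b 1.63). Itm2a, Bcl2 and Id2 are ranking genes, which chose the cells.

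The place of the high-ranked cells among all cells was read from variable genes outside the rule, in 20 principal components with 30 nearest neighbors per cell. A median of 26.7% of the neighbors of a high-ranked cell were high-ranked, where these cells made up 6.52% of the library, and 23.3% had Ccr7 above 0, where such cells made up 16.7%. Low-ranked cells made up 3.33% of the neighbors and unranked cells 0% in the median, and the rest of the library, 64.4% of it, made up 30.0%. Conversely, the median low-ranked cell and the median unranked cell had no high-ranked neighbor. With 30 components the order of the first 2 shares turned, at 23.3% high-ranked and 30.0% with Ccr7 above 0, and the median low-ranked cell had 1.67% high-ranked neighbors. Of the 130 cells, 98 had more neighbors with Ccr7 above 0 than low-ranked and unranked neighbors, 21 had fewer and 11 had as many, where low-ranked cells made up 5.92% and unranked cells 6.47% of the library. The principal components rest on the same cells, and 8 high-ranked cells had no neighbor of their own kind.

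Open chromatin at the ranking genes was read in the sorted cells, which are not the high-ranked cells and were not used by the rule. Counts in peaks within 2 kb of the gene start were few. The peak at the Itm2a start held 2 of 478264 counts in DP sorted cells, 7 of 558091 in CD4 and 9 of 494645 in CD8 sorted cells, and its rate relative to DP was 3.00 (0.571 to 29.6) in CD4 and 4.35 (0.901 to 41.4) in CD8 sorted cells. At Bcl2 the counts were 19, 7 and 10 and the ratios 0.316 (0.112 to 0.784) and 0.509 (0.211 to 1.15), so the signal was lower in CD4 than in DP sorted cells, although with peaks up to 10 kb from the start the ratio was 0.631 (0.293 to 1.33). Cd2 had ratios of 1.54 (0.464 to 5.86) and 0.967 (0.223 to 4.20), and Id2 of 1.27 (0.760 to 2.15) and 1.15 (0.665 to 1.99). Within 2 kb a difference from DP sorted cells was not detectable at this depth for Itm2a, Cd2 or Id2, while with peaks up to 10 kb away the Cd2 ratio in CD4 sorted cells was 1.68 (1.02 to 2.84), from 49 counts against 25. As background, 31.2% of the 35127 peaks with at least 20 counts over the 4 sorts had a ratio of at least 1.5 in CD4 and 30.8% in CD8 sorted cells, and 32.3% and 28.3% had a ratio of 1/1.5 or less. Intervals lay above 1 for 10.6% of these peaks in CD4 and 7.30% in CD8 sorted cells, and below 1 for 10.7% and 5.79%.

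The 16 genes named against unranked cells were also read there. Among the 8 higher genes, Cd53 and Pfn1 had intervals above 1 in both single-positive sorts, as did 3.35% of the 35127 peaks. Cd53 had ratios of 3.86 (1.56 to 11.4) and 3.71 (1.47 to 11.1), from 27 and 23 counts against 6, and Pfn1 of 5.14 (1.77 to 20.4) and 4.59 (1.53 to 18.6), from 24 and 19 against 4. With peaks up to 10 kb away added to the peak at the start, the Pfn1 ratios were 2.79 (1.57 to 5.23) and 2.66 (1.47 to 5.05). When the peaks up to 10 kb were taken in order of their total count, an overlapping peak 2116 bp away replaced the one at the start, and the ratios were 1.59 (0.987 to 2.62) and 1.28 (0.761 to 2.17). Lef1 had 2.34 (1.14 to 5.17) in CD4 and 0.967 (0.380 to 2.46) in CD8 sorted cells, and B2m 1.76 (1.01 to 3.17) and 1.21 (0.645 to 2.29). Cd52, higher in RNA, had 0.857 (0.337 to 2.18) in CD4 and 0.264 (0.0472 to 0.998) in CD8 sorted cells, from 3 counts against 11. By total count up to 10 kb, without the peak at the start, the Cd52 ratios were 3.71 (1.49 to 11.0) and 2.42 (0.886 to 7.60), so its direction depends on the peaks counted. Of the lower genes, Cd8a had a ratio of 0.0635 (0.00732 to 0.253) and Cd8b1 of 0.490 (0.284 to 0.828) in CD4 sorted cells, and 0.716 (0.381 to 1.33) and 0.990 (0.632 to 1.55) in CD8 sorted cells. Endou had 0.286 (0.0928 to 0.751) in CD4 and 0.806 (0.378 to 1.69) in CD8 sorted cells. For the rest of the 16 genes both intervals within 2 kb included 1. With peaks up to 10 kb away added, the intervals of Lef1 in CD4 (1.49, 0.910 to 2.49) and Cd52 in CD8 sorted cells (0.853, 0.397 to 1.82) included 1, and in CD4 sorted cells those of Arpc2 (2.57, 1.12 to 6.62), Dntt (0.419, 0.243 to 0.705) and Arpp21 (0.312, 0.120 to 0.727) no longer did. In cells with at least 1000 counts the intervals within 2 kb of B2m in CD4 (1.73, 0.987 to 3.12) and Cd52 in CD8 sorted cells (0.264, 0.0474 to 1.001) included 1, and that of Arpp21 in CD4 sorted cells (0.124, 0.00274 to 0.961) did not. At Tmsb10, the gene with the largest difference in RNA, the ratios were 1.28 (0.623 to 2.73) and 0.553 (0.201 to 1.41) within 2 kb. With peaks up to 10 kb away added to the peak at the start they were 2.18 (1.34 to 3.65) and 1.05 (0.578 to 1.91). Peaks taken by total count left out the one at the start, the nearest being 3695 bp away, and gave 4.19 (2.54 to 7.28) and 3.51 (2.09 to 6.18).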

How the data were processed

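scRNA-seq values were deposited by the authors on a log2 scale. Per the labels and methods, reads were aligned with Cell Ranger 1.3.1, cells and genes were filtered by quality, and quantile normalization was applied across cells, so differences are between normalized values and understate the highest genes. Steps (ranks within a cell) were thinned at random with seed 1. scATAC-seq values are raw counts per 4000 bp peak and cell. The authors deposited these counts after trimming, alignment by Bowtie2, duplicate removal by Picard and peak calling by MACS2 over all cells merged. The genome build was taken to be GRCm38. Columns of 1446 cells outside the 4 sorts were not used. Peaks counted for a gene did not overlap one another and were taken in order of total count, and an alternative added after the data were seen kept those within 2 kb first.

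Members and gene lists were chosen with earlier results of these data known. Named genes were the 4 ranking genes, the 8 highest and 8 lowest genes per comparison, up to 4 per list and the coreceptor genes. Intervals are exact binomial (Clopper-Pearson) or, for ratios of counts, exact conditional ones. Doublets were not called. Scripts used python 3.11.15, numpy 2.4.6, pandas 2.3.3 and scipy 1.17.1, and were tested on simulated data. Alternatives varied the thinning, number of members, ranking genes, filters, neighbors and distances. The 21 gene lists were described by counts and medians.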

Additional observations from a re-analysis of the deposited data

How the results depend on the processing

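With steps thinned to 1300 per cell on a log2(steps + 1) scale, which compresses differences, the counts of genes differing by 0.5 were 17 higher and 26 lower against unranked cells, 14 and 22 against low-ranked cells, 31 and 33 against the 11 Cd69-positive cells, and 1 and 5 against Ccr7-positive cells. The listed genes past 0.5 against unranked cells were 28 instead of 49, and the share of high-ranked cells with Cd4 and Cd8 was 25.4%. Ranking without Itm2a kept 119 of the 130 cells and gave 41 higher and 53 lower genes against 14 Cd69-positive cells. Ranking without Bcl2 kept 120 and gave 2 higher genes against Ccr7-positive cells. Ranking without Cd2 kept 117 and without Id2 125. In the other alternatives each count stayed within 1.5 times the reported one, including a set of 100 or 160 cells, no minimum share or a minimum of 20%, cells with 1000 to 1700 detected genes and, added after seeing the data, only the 87 upper and middle cells. Leaving out the 5% of cells with the most genes removed none of the cells compared. The median share of high-ranked neighbors was 23.3% with 30 components, below the 30.0% with Ccr7 above 0, and 30.0% with the genes of the rule. Of 768 gene differences recomputed, none called changed sign. No paired analysis was possible because the samples are single cells with no animal named, whose numbers follow the accession order and pair nothing. Depth limits single cells, as 1 step was worth 0.451 to 1.21 log2 units in high-ranked cells. The ATAC ratios of the ranking genes within 2 kb rest on 2 to 40 counts per sort. With 1 library, differences between animals were not measured.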

Other observations

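Levels of D-type cyclins differed between high-ranked and unranked cells. Ccnd3, the cyclin D3 of early thymocytes, was at 1.32 ± 1.02 (SD over cells) in high-ranked and 2.50 in unranked cells, and Ccnd2 at 0.85 ± 1.15 and 0.07, while Ccr7-positive cells had 1.19 for Ccnd3 and 1.42 for Ccnd2. Of the 28 cell cycle genes 25 could be tested against unranked cells, with 1 higher and 1 lower by 0.5 and a median difference of -0.0023. The gate had left out cells with Mki67 or Top2a. Of the 17 measured immediate early and heat shock genes, Zfp36l1, which destabilizes AU-rich messages, was 0.54 higher and Btg2, an antiproliferative gene, 0.81 lower against unranked cells. Junb was at 0.42 and 0.04 and Ier2 at 0.44 and 0.09. Of the 12 measured genes of agonist selection and regulatory T cells, 4 could be tested and none differed by 0.5, with Tnfrsf18 at 0.17 in high-ranked, 0.09 in unranked and 0.24 in Ccr7-positive cells. None of the 3 tested erythroid and stromal markers differed by 0.5 from unranked cells. Lgals1, Ighm and Ly6e, which are also made by other blood cells, were higher in both unranked and class II-high cells than in high-ranked cells, with means of 1.80 and 1.04 for Lgals1, 1.34 and 1.70 for Ighm, and 3.18 and 3.40 for Ly6e, against 0.52, 0.51 and 1.69.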
